A study of Mus musculus with 27 samples.

Results

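The Krüppel-like factors are a family of zinc-finger transcription factors, and 10 of them were followed here through a hydrogen peroxide time course in mouse embryonic stem cells: Klf2, Klf3, Klf4, Klf5, Klf6, Klf9, Klf10, Klf11, Klf13 and Klf16. Members were taken by gene symbol from tables of 38352 genes. All 10 were found, each symbol belonged to 1 gene, and all 10 were among the 13614 genes expressed well enough to be tested. Levels are in FPKM, a count of sequenced fragments scaled to transcript length and library size, so that levels can be compared between genes. A change is the difference of mean log2(FPKM + 1) between 2 groups, which understates the change of genes with low levels.

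The cells were E14Tg2a, an established wild-type line of embryonic stem cells, grown on gelatin with LIF and the 2i inhibitors, conditions that hold cells in a naive pluripotent state. There were 27 libraries in 9 groups of 3. The groups were untreated cells at 0 h, untreated cells at 24 h, and cells taken 0.5, 2, 4, 6, 8, 10 and 24 h after the start of a 30 min exposure to H2O2. The protocol gives the dose as 500 µM, whereas the series text writes the same number with the unit mM, and 500 µM is used here. After the exposure the medium was exchanged for conditioned medium taken from untreated cultures. No group had that exchange without H2O2, so peroxide and exchange cannot be told apart. The 0.5 h libraries were taken at the end of the exposure itself. The replicates are labelled as biological replicates of independent time courses. All treated times up to 10 h were set against the same 3 untreated 0 h libraries, and treated 24 h against untreated 24 h. These were bulk libraries, in which fewer cells of a type and less RNA per cell cannot be told apart.

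Krüppel-like factors bind GC-rich and CACCC elements through zinc fingers at their carboxy terminus and fall into groups by what their other parts recruit. Klf2, Klf4, Klf5 and Klf6 belong to group 2, mostly activators, and Klf2, Klf4 and Klf5 share the task of sustaining self-renewal in mouse embryonic stem cells, with Klf4 acting downstream of LIF and Stat3. Klf3 belongs to group 1, whose members recruit the corepressor CtBP, and Klf9, Klf10, Klf11, Klf13 and Klf16 belong to group 3, whose members recruit Sin3 and histone deacetylases.

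In GENCODE M21 on GRCm38, the build called mm10 in the submitters' processing notes, the group 2 genes are Klf2 (ENSMUSG00000055148) at chr8:72319033-72321656 on the plus strand, Klf4 (ENSMUSG00000003032) at chr4:55527143-55532466 on the minus strand, Klf5 (ENSMUSG00000005148) at chr14:99298691-99315036 on the plus strand and Klf6 (ENSMUSG00000000078) at chr13:5861482-5870394 on the plus strand. The group 1 gene is Klf3 (ENSMUSG00000029178) at chr5:64803388-64832901 on the plus strand. The group 3 genes are Klf9 (ENSMUSG00000033863) at chr19:23141226-23168134 on the plus strand, Klf10 (ENSMUSG00000037465) at chr15:38291463-38300706 on the minus strand, Klf11 (ENSMUSG00000020653) at chr12:24651274-24662789 on the plus strand, Klf13 (ENSMUSG00000052040) at chr7:63886351-63938915 on the minus strand and Klf16 (ENSMUSG00000035397) at chr10:80567124-80577321 on the minus strand.

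The stretches just upstream of the start sites are shown for members that fell together at 4 h and 6 h (Klf2, Klf13, Klf11, Klf3), for Klf6, which had the largest rise, and for Klf4, which was lower at 8 h and 10 h. They come from RefSeq windows on GRCm38.p6 of 250 bases before the RefSeq start, each ended at the base before the GENCODE M21 gene start where that lies further upstream. Such windows were held for 7 of the 10 members, those of Klf5, Klf10 and Klf16 excepted. Capitals mark a match to one of 3 motifs searched on both strands.
Klf2, chr8:72318812-72319032, plus strand: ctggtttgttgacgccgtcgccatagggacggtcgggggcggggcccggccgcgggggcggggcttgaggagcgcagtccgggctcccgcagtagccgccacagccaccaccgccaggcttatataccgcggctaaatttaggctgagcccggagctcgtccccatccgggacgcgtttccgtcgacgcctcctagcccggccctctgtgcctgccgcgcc
Klf13, chr7:63938916-63939165, minus strand: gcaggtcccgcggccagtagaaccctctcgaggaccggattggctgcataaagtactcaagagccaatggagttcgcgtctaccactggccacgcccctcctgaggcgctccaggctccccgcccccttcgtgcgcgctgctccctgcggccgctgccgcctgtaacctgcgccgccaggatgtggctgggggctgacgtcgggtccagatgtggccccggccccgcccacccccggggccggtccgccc
Klf11, chr12:24651121-24651273, plus strand: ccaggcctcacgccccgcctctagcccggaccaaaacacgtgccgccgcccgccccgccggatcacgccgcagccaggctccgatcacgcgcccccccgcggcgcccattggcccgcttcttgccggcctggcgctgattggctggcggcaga
Klf3, chr5:64803271-64803387, plus strand: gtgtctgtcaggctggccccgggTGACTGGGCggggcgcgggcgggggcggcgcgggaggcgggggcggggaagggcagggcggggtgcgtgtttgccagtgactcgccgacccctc
Klf6, chr13:5861239-5861481, plus strand: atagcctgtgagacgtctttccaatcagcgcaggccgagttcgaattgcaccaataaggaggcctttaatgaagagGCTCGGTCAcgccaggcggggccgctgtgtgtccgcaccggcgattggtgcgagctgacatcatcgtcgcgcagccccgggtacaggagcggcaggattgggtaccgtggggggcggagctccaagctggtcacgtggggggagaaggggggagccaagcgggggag
Klf4, chr4:55532476-55532725, minus strand: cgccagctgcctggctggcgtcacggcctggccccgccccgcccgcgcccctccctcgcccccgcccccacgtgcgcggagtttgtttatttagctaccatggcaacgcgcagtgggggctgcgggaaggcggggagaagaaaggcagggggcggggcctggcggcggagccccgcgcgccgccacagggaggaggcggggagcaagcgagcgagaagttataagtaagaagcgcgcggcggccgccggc

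The motifs were TTCNNNGAA (Stat factors), TGACNNNGC (the core of the antioxidant response element) and TGACGTCA (the cyclic AMP element). Distances here count from the RefSeq start, which for Klf6 and Klf3 lies downstream of the end of the stretch shown. Klf6 held TGACNNNGC on the minus strand of the window, 174 to 166 bases before that start (chr13:5861315-5861323). Klf3 held it on the plus strand, 227 to 219 bases before that start (chr5:64803294-64803302). Klf9 held TTCNNNGAA 33 to 25 bases before its RefSeq start. The letters of these motifs were found in 10.2%, 7.02% and 1.55% of all 32851 windows for TGACNNNGC, TTCNNNGAA and TGACGTCA, in that order. A match is a match of letters and no measured site. The 7 full windows of 250 bases were rich in G and C, from 59.6% in Klf9 to 78.4% in Klf3, against a median of 52.4% over all windows.

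In 4 groups 1 library lay away from its fellow replicates, and this touches many of the values below. These libraries, said below to stand apart, were untreated 0 h replicate 3, 2 h replicate 1, 8 h replicate 3 and 10 h replicate 3. Set against untreated 0 h replicates 1 and 2, their log2 levels leaned towards GC-rich transcripts by 0.356, 0.32, 0.191 and 0.202 per 10 points of GC content. The other 23 libraries ranged from -0.028 to 0.204, with the 3 libraries of 4 h between 0.129 and 0.204. Untreated 24 h replicates 1 to 3 leaned by 0.177, 0.023 and 0.109, and treated 24 h replicates 1 to 3 by -0.009, -0.028 and 0.001. At 24 h this lean thus differed between untreated and treated cells. The members differ in GC content, from 42.4% of the transcript in Klf6 to 61.6% in Klf2. The 8 embryonic stem cell markers summed to between 2338 and 4402 FPKM in all libraries, and 7 fibroblast markers to at most 2.1 FPKM. The 15 hepatocyte markers summed to between 46.7 and 68.3 FPKM at 0.5 h and 42.9 and 58.9 FPKM in untreated 24 h cells, against 1.14 to 7.395 FPKM in untreated 0 h cells, and reached 45.5 FPKM in 1 library of 6 h and 62.3 FPKM at 8 h. Their part in the member changes was not tested. The FPKM of all genes summed to between 294500 and 395800 in a library, and the number of reads behind them is unknown.

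In untreated cells at 0 h, Klf2 was the most abundant member with 115.9 ± 41.7 FPKM (SD, n = 3), followed by Klf4 with 44.5 ± 8.6 FPKM. Klf9 (24.95 ± 8.1 FPKM), Klf5 (22.7 ± 3.9 FPKM) and Klf16 (17.7 ± 2.2 FPKM) came next, and their libraries overlapped in that order. Klf10 stood at 12.8 ± 3.4 FPKM, below Klf16 and above Klf3 in every library. Klf3, Klf6, Klf13 and Klf11 lay between 5.2 and 7.8 FPKM and neighbours in that order overlapped. Together the 10 members summed to 263.6 ± 14.3 FPKM, of which Klf2 made up 43.5% ± 13.1 and Klf4 17.0% ± 4.1 (SD, n = 3).

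Of the 10 members, 6 were called lower at 4 h, beside 12.1% of all genes. At 8 h 4 were called higher, a share near the 29.2% of all genes, and these 4 include Klf5, which was not among the 6. Genes were called by limma at an adjusted p below 0.05 over all tested genes. At 4 h, 6 members were lower (Klf2, Klf3, Klf6, Klf10, Klf11, Klf13) where 12.1% of all tested genes were, and Klf16 was higher where 14.2% of all genes were. At 6 h, 5 of these 6 were still lower (20% of all genes), all but Klf6, and Klf5 and Klf6 were higher (22.3% of all genes). At 8 h, Klf3, Klf5, Klf6 and Klf13 were higher (29.2% of all genes) and Klf4 was lower (11.6%), and at 10 h Klf6 and Klf13 were higher (22.2%) and Klf4 lower (9.43%). The median change of the 10 members was -0.67 at 4 h and -0.40 at 6 h, beside medians of 0.01 and 0 over all genes, and 0.22 at 8 h and 0.01 at 10 h, beside 0.11 and 0.11. The embryonic stem cell markers, 3378 to 4402 FPKM in sum in untreated 0 h cells, summed to 3013 to 3217 FPKM at 4 h, 2578 to 2818 FPKM at 6 h, 2727 to 3192 FPKM at 8 h and 2338 to 2988 FPKM at 10 h. The 5 astrocyte markers, 2.42 to 3.18 FPKM in untreated 0 h cells, summed to 4.24 to 4.51 FPKM at 4 h, 7.09 to 14.3 FPKM at 6 h, 13.2 to 14.8 FPKM at 8 h and 6.43 to 11.9 FPKM at 10 h. In sum the stem cell markers were thus lower and the astrocyte markers higher than in untreated 0 h cells at all 4 times, without overlap. The same held at 0.5 h, where no member was called (2877 to 3330 FPKM and 6.97 to 7.51 FPKM). In untreated 24 h cells the astrocyte markers summed to 6.86 to 7.37 FPKM, also above untreated 0 h. The stem cell markers there (3632 to 4007 FPKM) overlapped untreated 0 h. Single markers differed at 4 h. Pou5f1, Dppa5a and Esrrb overlapped untreated 0 h, while Sox2, Nanog, Zfp42, Utf1 and Tdgf1 lay below it. Of the astrocyte markers, Aldh1l1 rose (4.08 to 4.19 FPKM, against 2.325 to 2.70 FPKM untreated). Gfap and Lcn2 overlapped, Aqp4 read 0 and Slc1a2 at most 0.0079 FPKM. The part of these markers in the member changes was not tested.

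**Figure D1:**
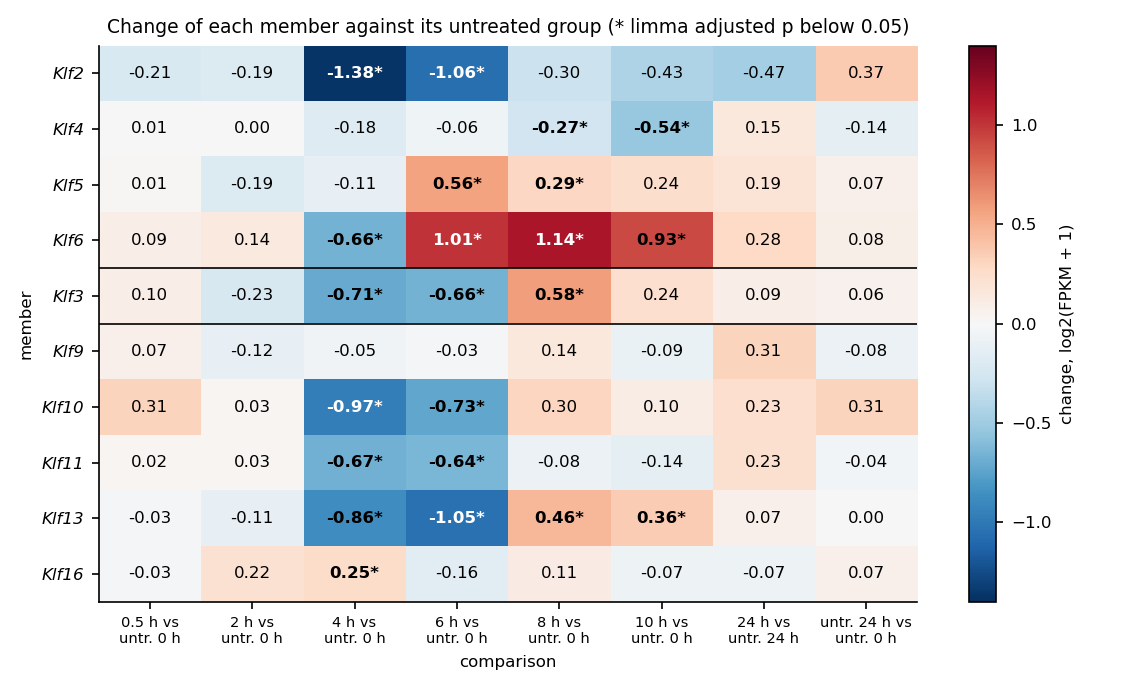
Change of each member in log2(FPKM + 1) (colour and printed value) in the 8 comparisons with an untreated group, with members in rows by group (group 2 on top, then Klf3, then group 3). Asterisks mark an adjusted p below 0.05 in limma, and the calls lie in the 4 h to 10 h columns.

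No member passed limma's test at 0.5 h, where 0.0147% of all genes were higher and 0.0661% lower, or at 2 h, where 0.499% were higher and 0.566% lower. At an unadjusted p below 0.05 there was 1 member at 0.5 h and 2 at 2 h. Likewise 0 members passed at 24 h against untreated 24 h (8.63% of all genes higher and 4.28% lower) and 0 between the untreated groups (0.426% higher and 0.279% lower), with 1 member at an unadjusted p below 0.05 in each. The shares of all genes at that unadjusted limit are not given here. The authors' deposited table marks 3 members as changed at 4 h (Klf2, Klf10 and Klf13, all lower), 3 at 6 h (Klf2 and Klf13 lower, Klf6 higher) and 1 at 8 h (Klf6, higher), and none at 0.5, 2, 10 or 24 h. Each of these marks goes with a deposited log2 fold above 1 in size, whereas the limma calls have no fold limit. Members under that size are unmarked even at a low q-value. Examples at 4 h are Klf3 (-0.84, authors' q-value 2.94e-06), Klf11 (-0.89, 0.00208) and Klf6 (-0.88, 0.0143), and at 10 h Klf4 (-0.56, 0.00211). With median-of-ratios scaling the median of all genes moved from 0.112 to -0.023 at 8 h and from 0.109 to -0.007 at 10 h, which left 20.5% of all genes higher against 19.1% lower at 8 h, and 15.1% against 15.4% at 10 h. The members higher were then Klf3, Klf6 and Klf13 at 8 h, without Klf5, and at 10 h Klf2 joined Klf4 among the members lower. With a correction for GC content and length the split was 23% higher and 24.1% lower at 8 h and 18.1% and 19.7% at 10 h, and 3 members were lower at 8 h and 5 at 10 h.

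Klf2, the group 2 activator needed for self-renewal in 2i medium, had the largest fall of the 10 at 4 h with all libraries, and Klf10 had it without the 4 that stand apart. Klf2 read 88.2, 95.6 and 164 FPKM in untreated 0 h replicates 1, 2 and 3, and 45.2, 40.6 and 41.2 FPKM at 4 h. At 6 h it read 50.7, 54.3 and 54.2 FPKM. All 6 libraries of 4 h and 6 h lay under every untreated library, and the high untreated value belongs to replicate 3, which stands apart. The change was -1.38 (SE 0.18, adjusted p = 5.31e-06, limma) at 4 h and -1.06 (SE 0.18, adjusted p = 6.60e-05) at 6 h. With the 4 libraries that stand apart left out these were -1.10 (SE 0.08) and -0.78 (SE 0.08), both still called.

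Before the fall, Klf2 read 92.3 to 98.4 FPKM at 0.5 h and 82.1 to 125.4 FPKM at 2 h, overlapping the untreated libraries. From 6 h to 8 h it rose by 0.75 (SE 0.18, adjusted p = 0.00371, limma), to 81.4, 82.4 and 109 FPKM, and it stood at 80.8, 70.2 and 98.3 FPKM at 10 h. The highest value at both times again belongs to the library that stands apart. The change at 10 h was -0.43 (SE 0.18) and was not called, but it was called once 1 of 3 libraries was removed: untreated 0 h replicate 1 (-0.60) or 2 (-0.54), or replicate 3 of 10 h (-0.56).

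At 24 h Klf2 read 100.4, 102 and 109 FPKM in treated cells and 151, 126 and 157 FPKM in untreated cells. The groups did not overlap. The share of all genes without overlap was not counted, for this comparison or the others. Called in this one were 8.63% of all genes higher and 4.28% lower. The difference of -0.47 (SE 0.18) was not called with the spread of all 27 libraries, but was called at the same value without the 4 libraries that stand apart (SE 0.07, adjusted p = 5.7e-05, limma). None of those 4 belongs to a 24 h group, so the change in the call lies in the spread. The hepatocyte markers summed to between 42.9 and 58.9 FPKM in the untreated 24 h libraries, with 0 of 15 at 0 throughout, and to between 0.958 and 1.52 FPKM in the treated ones, with 4 of 15 at 0 in all, and their part in the 24 h changes was not tested. In the authors' deposited table Klf2 has a q-value of 1.09e-07 and a log2 fold of -0.48 at 24 h. It is not marked as changed, like other members with a deposited log2 fold under 1 in size. Its level in untreated 24 h cells, 144.6 ± 16.0 FPKM, was the highest of the 9 groups and overlapped untreated 0 h.

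**Figure D2:**
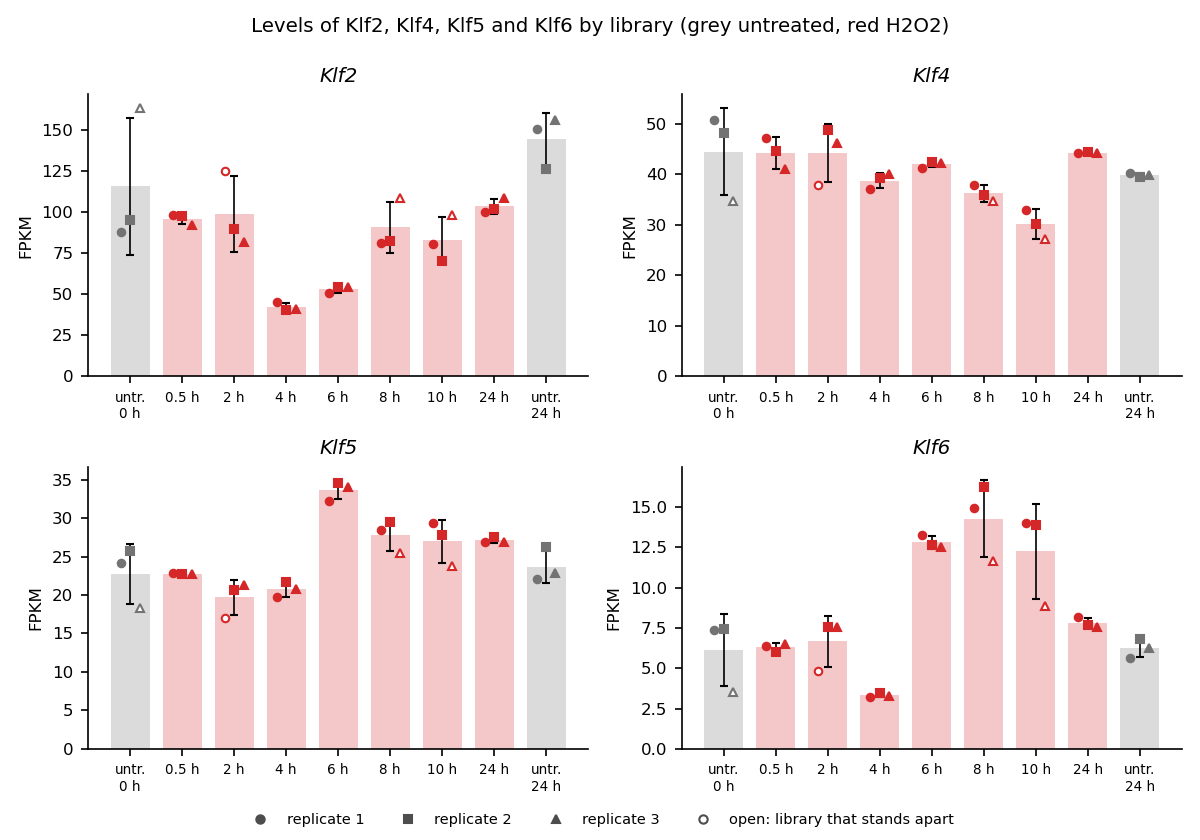
Level in FPKM of the 4 group 2 members in each library, by group along the time course, with the bar at the mean of 3 libraries and the error bar at 1 SD. Open symbols are the 4 libraries that stand apart, which read high for Klf2 and low for Klf5 and Klf6 within their groups.

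Klf4, a reprogramming factor and a target of LIF and Stat3, was called at neither 4 h nor 6 h. It read 50.7, 48.2 and 34.6 FPKM in untreated 0 h replicates 1 to 3, 37.0, 39.2 and 40.0 FPKM at 4 h and 41.3, 42.4 and 42.3 FPKM at 6 h. Both treated groups lay within the span of the untreated libraries, with changes of -0.18 and -0.06 (SE 0.11) that were not called. Without untreated 0 h replicate 3 they were -0.34 (adjusted p = 0.00435, limma) and -0.23 (adjusted p = 0.0376), so that leaving out this library changed the call at both times. Under median-of-ratios scaling the 4 h change was also called (-0.23, adjusted p = 0.025), and without the 4 libraries together Klf4 was lower at both times (-0.34 and -0.23).

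Klf4 then reached its lowest level at 10 h. It read 37.9, 35.9 and 34.7 FPKM at 8 h and 33.0, 30.15 and 27.1 FPKM at 10 h. All 3 libraries of 10 h lay under every untreated 0 h library. The change was -0.54 at 10 h (SE 0.11, adjusted p = 0.000653, limma), and -0.63 (SE 0.06) without the 4 libraries that stand apart. The smaller change at 8 h, -0.27 (SE 0.11, adjusted p = 0.0475), was no longer called without untreated 0 h replicate 1 (-0.17) or 2 (-0.21) or without any 1 of the 3 libraries of 8 h (-0.24 to -0.31), and was -0.41 without the 4 libraries together.

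At 24 h Klf4 read 44.3, 44.3 and 44.2 FPKM in treated cells, above the 40.3, 39.4 and 40.0 FPKM of untreated cells, without overlap. That change of 0.15 (SE 0.11) was not called, and it was called at the same size without the 4 libraries (SE 0.05, adjusted p = 0.016, limma). The 24 h change exceeded the 10 h change by 0.68 (SE 0.15, adjusted p = 0.00622), a difference for which 2.95% of all genes were higher and 5.75% lower. Klf4 was the 1 member that passed this test with all libraries, and Klf9 (0.70) and Klf11 (0.585) passed it as well with untreated 0 h replicate 3 removed.

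Klf5, the third group 2 factor of the self-renewal set, moved in the other direction from Klf2 at 6 h. It read 24.2, 25.7 and 18.35 FPKM in untreated 0 h cells and 19.7, 21.7 and 20.8 FPKM at 4 h, which overlap (at 4 h a change of -0.11 that was not called, and -0.255 and called with untreated 0 h replicate 3 removed). At 6 h it read 32.3, 34.6 and 34.1 FPKM, the highest of the 9 groups and above every library of the other 8. The change at 6 h was 0.56 (SE 0.10, adjusted p = 0.000159, limma) against untreated 0 h, and 0.67 (SE 0.10, adjusted p = 8.11e-05) against 4 h. It was 0.42 (SE 0.06) against untreated 0 h without the 4 libraries that stand apart.

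After 6 h, Klf5 read 28.45, 29.5 and 25.45 FPKM at 8 h and 29.3, 27.8 and 23.8 FPKM at 10 h. At 8 h 1 library lay within the untreated range, and the call (0.29, SE 0.10, adjusted p = 0.0307, limma) was lost without untreated 0 h replicate 3 (0.15), 8 h replicate 1 (0.27) or 8 h replicate 2 (0.25), and under median-of-ratios scaling (0.12). The 10 h change of 0.24 was not called, but was at 0.34 with untreated 0 h replicate 2 removed and at 0.33 with replicate 3 of 10 h removed. At 24 h treated libraries (26.9 to 27.6 FPKM) lay above untreated ones (22.1 to 26.2 FPKM), with a change of 0.19 (SE 0.10) that was not called.

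Klf6, a group 2 factor known as an early gene of growth and injury responses, fell at 4 h and was above the untreated level from 6 h to 10 h. It read 7.395, 7.43 and 3.55 FPKM in untreated 0 h cells and 3.22, 3.49 and 3.29 FPKM at 4 h. The 4 h libraries lay only just under the untreated replicate that stands apart. The change of -0.66 (SE 0.19, adjusted p = 0.0135, limma) was lost without untreated 0 h replicate 1 (-0.52) or 2 (-0.51), and was -0.96 (SE 0.06) without the 4 libraries that stand apart.

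At 6 h Klf6 read 13.3, 12.7 and 12.5 FPKM, a rise of 1.67 from 4 h (SE 0.19, adjusted p = 2.71e-06, limma). No library of 6 h was close to the untreated range. At 8 h it read 14.9, 16.3 and 11.65 FPKM and at 10 h 14.03, 13.9 and 8.86 FPKM, and the lowest value at both times belongs to the library that stands apart. Against untreated 0 h the changes were 1.01 (adjusted p = 0.000229), 1.14 (adjusted p = 7.94e-05) and 0.93 (adjusted p = 0.000987) at 6, 8 and 10 h, each with an SE of 0.19 and without overlap of the groups. They were 0.72, 0.98 and 0.83 without the 4 libraries. The hepatocyte markers summed to 1.44, 1.27 and 45.5 FPKM in 6 h replicates 1 to 3, and to 62.3, 53.0 and 1.70 FPKM in 8 h replicates 1 to 3. Their part in the Klf6 changes was not tested.

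At 24 h Klf6 had come down to 8.16, 7.68 and 7.545 FPKM in treated cells. Untreated 24 h cells read 5.66, 6.83 and 6.28 FPKM, all under the treated ones. The change of 0.28 (SE 0.19) was not called, and was called at the same size without the 4 libraries (SE 0.05, adjusted p = 0.0004, limma).

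Klf3, the group 1 repressor that recruits CtBP, fell with Klf2 and then overshot. It read 8.53, 8.54 and 6.36 FPKM in untreated 0 h cells, 5.84, 6.84 and 6.76 FPKM at 2 h, 4.37, 4.23 and 4.499 FPKM at 4 h and 4.40, 4.49 and 4.77 FPKM at 6 h. All libraries of 4 h and 6 h lay under all untreated ones. At 8 h Klf3 read 12.7, 13.0 and 10.7 FPKM, above every library of the untreated 0 h group. The changes were -0.71 at 4 h (SE 0.11, adjusted p = 3.82e-05, limma), -0.66 at 6 h (SE 0.11, adjusted p = 4.55e-05) and 0.58 at 8 h (SE 0.11, adjusted p = 0.000232). The step from 6 h to 8 h was a rise of 1.24 (SE 0.11, adjusted p = 4.01e-08).

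At 10 h Klf3 read 10.5, 10.35 and 7.41 FPKM, and the change of 0.24 was not called with all libraries but was at 0.38 without 10 h replicate 3 (adjusted p = 0.00627, limma). Without the 4 libraries that stand apart it was also lower at 2 h, by -0.29 (adjusted p = 0.0088). At 24 h treated (8.63 to 8.89 FPKM) and untreated (7.70 to 8.88 FPKM) libraries overlapped. Klf3 shares part of its locus with Gm20033 on the opposite strand and C230096K16Rik, and the strand setting of the authors' counting is not given in the sources used here.

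Klf10 and Klf11, the group 3 repressors known as TGF-beta inducible early genes, fell at 4 h and 6 h, and both rose from 6 h to 8 h. Klf10 read 15.05, 14.4 and 8.92 FPKM in untreated 0 h cells, 5.64, 6.26 and 5.83 FPKM at 4 h, 7.29, 6.85 and 7.34 FPKM at 6 h and 16.2, 16.7 and 14.04 FPKM at 8 h. The 4 h and 6 h libraries lay under all untreated libraries, and the untreated replicate that stands apart was the lowest of its group. The changes were -0.97 at 4 h (SE 0.13, adjusted p = 9.29e-06, limma) and -0.73 at 6 h (SE 0.13, adjusted p = 0.000137), followed by a rise of 1.02 from 6 h to 8 h (SE 0.13, adjusted p = 5.83e-06). The 8 h change against untreated 0 h, 0.30 (SE 0.13), was called only with untreated 0 h replicate 1 (0.425) or 2 (0.40) removed. The falls at 4 h and 6 h were -1.19 and -0.95 (SE 0.06) without the 4 libraries.

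At 0.5 h Klf10 read 16.1, 15.9 and 15.2 FPKM, above all untreated libraries. How many of all genes lay apart in the same way was not counted. Called higher in that comparison were 0.0147% of all genes. The change of 0.31 (SE 0.13) was not called, and it was 0.09 (SE 0.06) without the 4 libraries that stand apart. At 24 h Klf10 read 18.4, 18.7 and 18.7 FPKM in treated cells, its highest group, and 14.3, 17.1 and 15.8 FPKM in untreated cells. The groups did not overlap, and the change of 0.23 (SE 0.13) was not called. It was called without the 4 libraries (adjusted p = 0.0016, limma).

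Klf11 read 6.065, 6.01 and 3.44 FPKM in untreated 0 h cells, 2.75, 2.96 and 2.69 FPKM at 4 h and 3.23, 2.79 and 2.60 FPKM at 6 h. All 6 treated libraries lay under the untreated ones, the highest of them by little. The changes were -0.67 (SE 0.16, adjusted p = 0.00366, limma) and -0.64 (SE 0.16, adjusted p = 0.003), and -0.89 and -0.87 (SE 0.08) without the 4 libraries. With only the libraries compared neither was called (adjusted p = 0.105 and 0.0736). From 6 h to 8 h Klf11 rose by 0.57 (SE 0.16, adjusted p = 0.0139), to 4.09 to 5.17 FPKM. With the GC content and length correction Klf11 was still lower than untreated 0 h at 8 h (-0.29, adjusted p = 0.0123) and 10 h (-0.31, adjusted p = 0.0107).

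Klf13, a group 3 factor known from T cells as a regulator of Ccl5, had the smallest SE of the falling members. It read 6.27, 6.81 and 4.92 FPKM in untreated 0 h cells, 2.83, 2.79 and 2.84 FPKM at 4 h and 2.33, 2.385 and 2.39 FPKM at 6 h. At 8 h it read 9.365, 9.18 and 7.305 FPKM and at 10 h 8.11, 8.85 and 6.88 FPKM. The low and the high groups both lay outside the untreated range, in opposite directions. The changes were -0.86 at 4 h (SE 0.10, adjusted p = 6.21e-07, limma), -1.05 at 6 h (SE 0.10, adjusted p = 1.63e-08), 0.46 at 8 h (SE 0.10, adjusted p = 0.000715) and 0.36 at 10 h (SE 0.10, adjusted p = 0.00774).

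The rise of Klf13 from 6 h to 8 h was 1.51 (SE 0.10, adjusted p = 7.84e-10, limma). The 10 h call was lost without untreated 0 h replicate 3 (0.24, adjusted p = 0.0593) and without 10 h replicate 2 (0.28, adjusted p = 0.056), and was kept without the 4 libraries together (0.33). With the GC content and length correction the changes were 0.20 at 8 h and 0.135 at 10 h, both called, and with only the libraries compared neither was called (adjusted p = 0.11 and 0.263). At 24 h treated (6.22 to 6.40 FPKM) and untreated (5.62 to 6.33 FPKM) libraries overlapped. Klf13 overlaps Gm27252 and E030018B13Rik on the opposite strand.

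**Figure D3:**
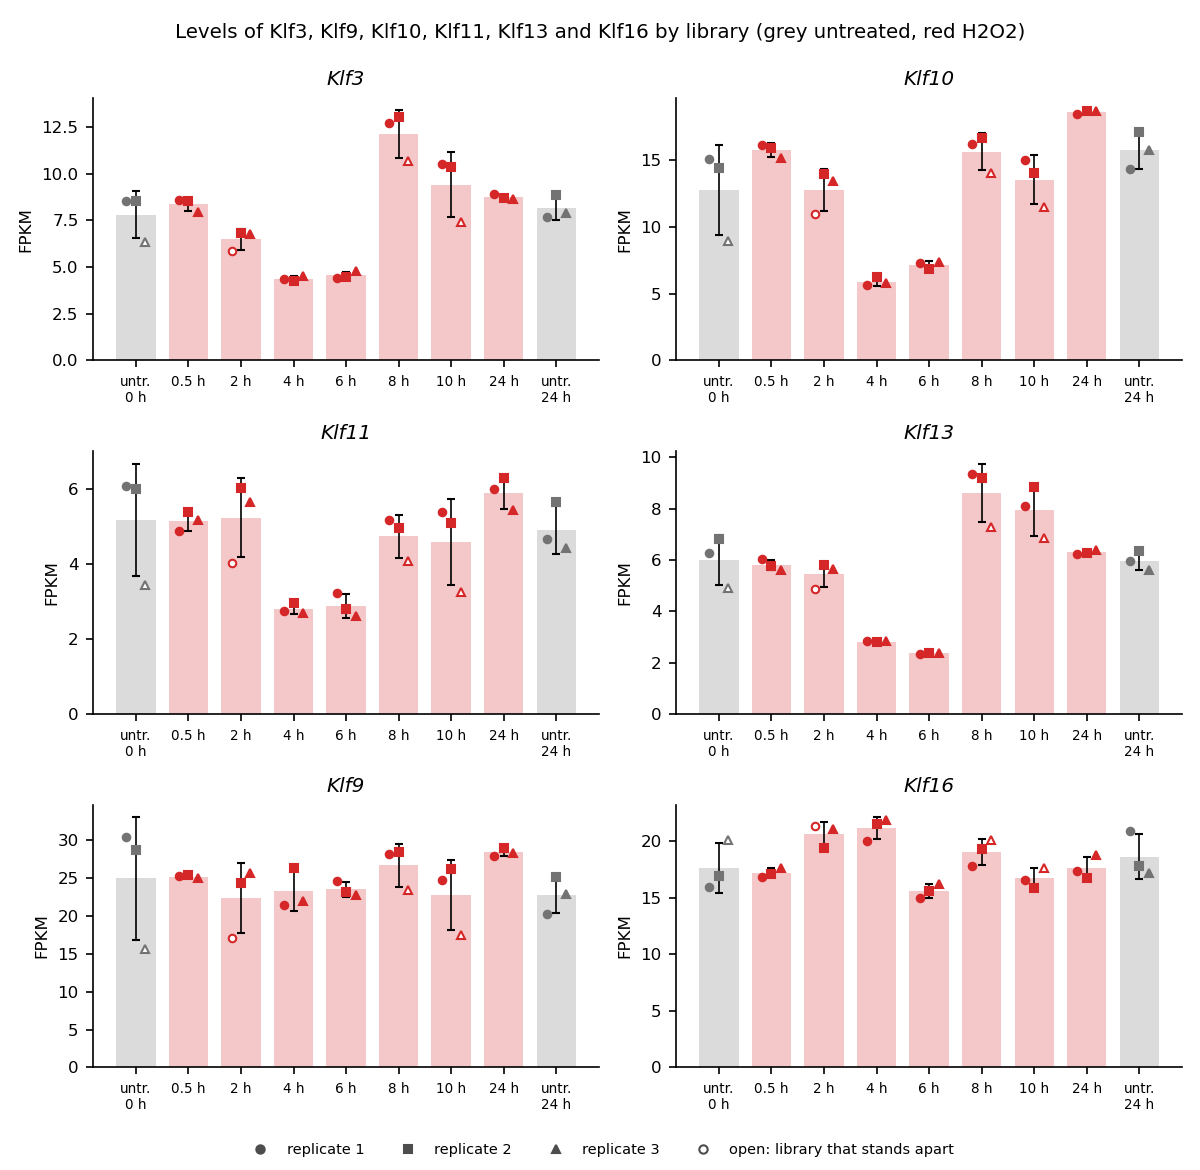
Level in FPKM of the group 1 and group 3 members in each library, by group along the time course, with the bar at the mean of 3 libraries and the error bar at 1 SD. Klf3, Klf10, Klf11 and Klf13 are low at 4 h and 6 h, Klf3 and Klf13 are highest at 8 h, and Klf9 and Klf16 stay within a narrower range.

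Klf9 and Klf16, the remaining group 3 members, were called in 0 and 1 of the 8 comparisons with an untreated group, in that order. Klf9, a repressor induced by glucocorticoids and thyroid hormone, read 15.65 to 30.4 FPKM in untreated 0 h cells, with the low value in replicate 3, and between 17.1 and 28.5 FPKM in all libraries from 0.5 h to 10 h. None of its changes passed limma's test with all libraries. Without the 4 libraries that stand apart it was lower at 4 h by -0.34 (SE 0.08, adjusted p = 0.0013) and at 6 h by -0.32 (SE 0.08, adjusted p = 0.0018). At 24 h treated libraries (27.9 to 29.0 FPKM) lay above untreated ones (20.3 to 25.1 FPKM), by 0.31 (SE 0.19), which was not called with all libraries, but was without the 4 libraries (adjusted p = 0.0011) and with only the libraries compared (adjusted p = 0.0218).

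Klf16 read 15.95, 16.9 and 20.2 FPKM in untreated 0 h cells and 20.1, 21.55 and 21.9 FPKM at 4 h. The untreated replicate that stands apart was as high as the lowest library of 4 h. The change of 0.25 (SE 0.08, adjusted p = 0.0236, limma) was called, but lost the call when untreated 0 h replicate 1 (0.19) or 2 (0.23) was removed, when replicate 2 (0.24) or 3 (0.23) of 4 h was removed, and under median-of-ratios scaling (0.20). From 4 h to 6 h Klf16 fell by 0.42 (SE 0.08, adjusted p = 0.000858), to 15.0, 15.6 and 16.25 FPKM, its lowest group, and from 6 h to 8 h it rose by 0.27 (SE 0.08, adjusted p = 0.0158), a call lost under median-of-ratios scaling and under the GC content and length correction. With untreated 0 h replicate 3 removed it was called higher at 2 h (0.31) and 8 h (0.20), and with untreated 0 h replicate 1 removed lower at 6 h (-0.23).

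The steps between neighbouring times place the turns of the family. From 2 h to 4 h, 6 members fell (Klf2, Klf3, Klf6, Klf10, Klf11, Klf13), with changes from -0.48 in Klf3 to -1.19 in Klf2, in a step with 20.1% of all genes called in either direction. From 4 h to 6 h, Klf5 and Klf6 rose and Klf16 fell, again with 20.1% of all genes called. From 6 h to 8 h, Klf2, Klf3, Klf10, Klf11, Klf13 and Klf16 rose, by 0.27 to 1.51, with 24.1% of all genes called. The rise of Klf16 in this step was not called under median-of-ratios scaling or the GC content and length correction, and Klf4 and Klf5 were called lower in it under both, with only the libraries compared and without the 4 libraries. From 0.5 h to 2 h (1.17% of all genes) and from 8 h to 10 h (5.37%) 0 members passed limma's test, and 3 had an unadjusted p below 0.05 in each. For that unadjusted limit the shares of all genes are not given here.

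The family's sum and its make-up moved with these steps. The 10 members summed to 165.5 ± 3.4 FPKM at 4 h, 197.6 ± 2.7 FPKM at 6 h and 256.0 ± 4.1 FPKM at 8 h (SD, n = 3), and to 268.5 ± 4.7 FPKM in treated and 290.6 ± 10.0 FPKM in untreated cells at 24 h. Klf2 made up 25.6% ± 2.0 of the sum at 4 h, where Klf4 made up 23.4% ± 0.7. At 24 h Klf2 made up 38.6% ± 1.0 in treated and 49.7% ± 3.9 in untreated cells. At 4 h the order of levels was Klf2 (42.3 FPKM), Klf4 (38.8 FPKM), Klf9, Klf16 and Klf5 (23.2 to 20.8 FPKM, overlapping), then Klf10, Klf3 and Klf6 (5.91, 4.37 and 3.33 FPKM, each apart from the next), and last Klf13 and Klf11 (2.82 and 2.80 FPKM, overlapping).

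**Figure D4:**
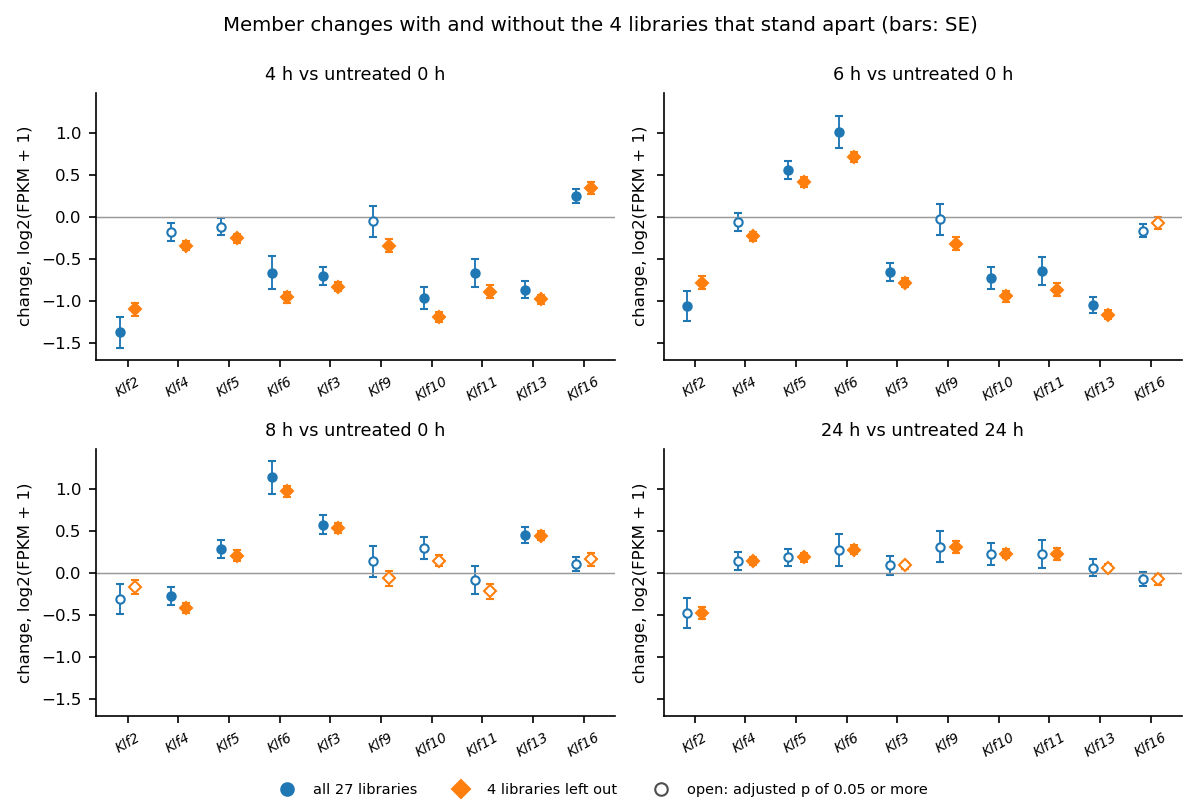
Change in log2(FPKM + 1) with its SE for each member in 4 comparisons, from all 27 libraries (circles) and without the 4 libraries that stand apart (diamonds), with filled symbols for an adjusted p below 0.05 in limma. The falls of Klf3, Klf10, Klf11 and Klf13 at 4 h and 6 h are larger without these libraries and those of Klf2 smaller, and at 24 h the values are the same with smaller errors.

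Without the 4 libraries that stand apart, 9 members were lower and 1 higher at 4 h, where 27.7% of all genes were lower and 22.9% higher. At 6 h 7 were lower and 2 higher, where 30.7% of all genes were lower and 25.4% higher. At 24 h, 6 members were then higher (Klf4, Klf5, Klf6, Klf9, Klf10, Klf11) and Klf2 lower, where 33.1% of all genes were higher and 18.2% lower. A fit with untreated 24 h replicates 1 and 3 also left out had only 1 untreated 24 h library, so its calls are not given. The comparison of the untreated groups, 0 members with all libraries, gave with the 4 libraries left out Klf2 higher (0.64, SE 0.08, and called at 0.64 with untreated 0 h replicate 3 alone removed) and Klf4, Klf6, Klf9 and Klf11 lower, and Klf6 turned from 0.08 to -0.22. With the 4 left out 11.7% of all genes were higher and 18.4% lower between the untreated groups. With only the libraries compared, and the values unchanged, the calls were 4 at 4 h (Klf2, Klf3, Klf10 and Klf13 lower, with 3.27% of all genes lower) and 6 at 6 h (the same 4 lower and Klf5 and Klf6 higher, with 8.41% lower and 11.5% higher). At 8 h Klf6 alone was called, higher (9.03%), at 10 h 0 members were (2.83% higher and 0.727% lower), and at 24 h Klf4, Klf6, Klf9 and Klf10 were higher (22.7%) and Klf2 lower (13.1%). The losses at 8 h include Klf3 (adjusted p = 0.0579) and at 10 h Klf4 (adjusted p = 0.155) and Klf6 (adjusted p = 0.146). With a correction for GC content and length, Klf2 was called at 24 h (-0.35) and between the untreated groups (0.36), with 9.51% of all genes higher and 10.5% lower at 24 h. Under that correction 0 members were called higher at 24 h.

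Of the 7 family genes outside these 10, Klf7, Klf8, Klf12 and Klf15 were tested and Klf1, Klf14 and Klf17 were below the limit. Klf8, like Klf3 a group 1 repressor, also fell at 4 h (-0.79, SE 0.23, adjusted p = 0.0125, limma) and 6 h (-1.11, SE 0.23, adjusted p = 0.000484) and rose by 1.28 from 6 h to 8 h (SE 0.23). Its levels were 10.2 ± 4.1 FPKM untreated, 5.13 ± 0.57 FPKM at 4 h, 3.915 ± 0.27 FPKM at 6 h and 10.95 ± 1.5 FPKM at 8 h (SD, n = 3). Klf12, the other group 1 gene, passed in no comparison with an untreated group, with changes from -0.12 to 0.37 (SE 0.18). It read 1.39, 1.29 and 0.585 FPKM in untreated 0 h replicates 1 to 3, of which replicate 3 stands apart. For genes outside the 10 members, here and below, changes are given with all libraries only. Klf15 fell at 4 h (-0.30, SE 0.08) and was higher at 6 h (0.33) and 8 h (0.46), and Klf7 fell at 4 h (-0.32, SE 0.10) and was higher at 8 h (0.29).

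The Sp factors, the sister family that binds the same kind of GC-rich element, had 6 of 9 genes tested. At 4 h Sp6 (2.60, SE 0.49) and Sp2 (0.72, SE 0.06) rose and Sp5 fell (-0.73, SE 0.13), and at 6 h all 3 were higher. Sp5, a target of Wnt signalling, stood at 1.82 ± 0.43 FPKM untreated and at 7.705 ± 1.52 FPKM at 8 h and 7.95 ± 0.99 FPKM at 10 h (SD, n = 3), with changes of 1.62 and 1.67 (SE 0.13). Its 24 h change minus its 10 h change was -1.80 (SE 0.18). Sp1, Sp3 and Sp4 passed in no comparison with an untreated group, with changes from -0.40 to 0.54. All 3 were lower in untreated 0 h replicate 3, which stands apart, than in replicates 1 and 2. Sp3 read 25.2, 22.4 and 8.95 FPKM in untreated 0 h replicates 1 to 3, and 16.1, 18.7 and 17.2 FPKM at 4 h. Sp1 read 26.6, 24.9 and 11.6 FPKM in these untreated replicates, and 19.5, 23.9 and 22.3 FPKM at 4 h.

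The signals that feed Klf2, Klf4 and Klf5 were followed by 9 genes of the LIF, Stat3 and MEK5 pathways, all tested. At 4 h Socs3, the feedback inhibitor induced by Stat3 (-0.80, SE 0.09), and Lifr, the LIF receptor (-0.91, SE 0.15), fell and Stat3 rose (0.47, SE 0.13). At 6 h 3 of the 9 were lower (Lifr, Socs3, Mef2d) and 2 higher (Stat3 and Mef2a), beside 20% and 22.3% of all genes, and at 8 h 5 were higher (Map2k5, Mapk7, Mef2a, Mef2d, Stat3), beside 29.2%. At 24 h Socs3 was lower in treated cells (-0.32, SE 0.09). The median change of the 9 genes was 0.02 at 4 h and 0.24 at 8 h, beside 0.01 and 0.11 over all genes.

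Of 10 factors that work beside the Klf proteins in the naive network, 7 were lower at 4 h and 1 higher, with a median of -1.035, where 12.1% of all tested genes were lower and 14.2% higher. The largest falls at 4 h were in Nr5a2 (-1.79, SE 0.17), Nanog (-1.66, SE 0.08) and Sall4 (-1.45, SE 0.07), and at 6 h in Nanog (-1.92, SE 0.08) and Prdm14 (-1.89, SE 0.14). Nr0b1 was the gene that rose at 4 h (0.55, SE 0.09). At 8 h 3 were lower (11.6% of all genes) and 1 higher (29.2%), and at 10 h 4 were lower (9.43%). Esrrb and Tfcp2l1 passed at no time, with changes between -0.23 and 0.38. Tfcp2l1 read 72.8, 74.2 and 30.5 FPKM in untreated 0 h replicates 1 to 3, and 41.6, 52.2 and 47.2 FPKM at 4 h. Its 4 h libraries thus lay under untreated replicates 1 and 2 and above replicate 3, which stands apart. Esrrb read 122, 128 and 79.1 FPKM in these untreated replicates, and 115, 117.5 and 114 FPKM at 4 h. The missing calls are therefore no sign that these genes were stable.

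Among 8 corepressors used by group 1 and group 3 proteins, Sap30, a subunit of the Sin3 complex, fell at 4 h (-0.77, SE 0.16) and 6 h (-0.97, SE 0.16), and Ctbp2 (-0.62, SE 0.17) and Sin3a (-0.55, SE 0.18) fell at 6 h. Of the 8, 1 was lower and 1 higher at 4 h, beside 12.1% and 14.2% of all genes. At 6 h 3 were lower and 0 higher, beside 20% and 22.3%. At 8 h 1 was lower and 1 higher, beside 11.6% and 29.2%, and likewise at 10 h, beside 9.43% and 22.2%. Ctbp1 was lower in treated cells at 24 h (-0.39, SE 0.07), where 4.28% of all genes were lower. Of 7 tested genes of the TGF-beta pathway that feeds Klf10 and Klf11, Tgif1 (-0.86, SE 0.07) and Smad7 (-0.41, SE 0.07) fell at 4 h. At that time 0 of the 7 were higher, beside 12.1% of all genes lower and 14.2% higher. Smad7 was already lower at 0.5 h (-0.44, SE 0.07), where 0.0661% of all genes were lower. Smad3 rose at 6 h (0.84, SE 0.15), when 1 of the 7 was higher and 2 lower, beside 22.3% and 20% of all genes. At 2 h 2 were lower (0.566%), and at 24 h 1 was higher (8.63%). At 8 h 1 was higher and 1 lower, beside 29.2% and 11.6%, and likewise at 10 h, beside 22.2% and 9.43%.

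Next to Klf9, the glucocorticoid receptor gene Nr3c1 rose at 4 h (1.06, SE 0.20) and 6 h (1.47, SE 0.20), while its target Sgk1 fell (-2.10 and -1.13, SE 0.12). Of the other 3 tested targets, Dusp1 was higher from 2 h (1.26, SE 0.06) to 10 h (1.15), Per1 was higher at 4, 6 and 8 h by 0.32 to 0.36, and Fkbp5 passed at no time. Of 8 tested genes for ubiquitin ligases of KLF proteins, 3 were higher at 4 h, 4 at 6 h and 6 at 8 h, beside 14.2%, 22.3% and 29.2% of all genes, and 1 was lower at 6 h, beside 20%. Fbxw7 had the largest changes at 4 h and 6 h (1.06 and 1.23, SE 0.09), followed by Siah1b (0.65 and 0.74, SE 0.08) and Smurf1 (0.43 and 0.72, SE 0.11).

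Members resembled each other to different degrees over the 9 group means of log2(FPKM + 1), values that share libraries and untreated controls and are given as a description. Klf3 and Klf13 had a Pearson r of 0.962, Klf10 and Klf11 one of 0.949, and Klf2 had 0.89 with Klf11 and 0.881 with Klf10. Klf5 and Klf6 had 0.81, and Klf5 had -0.763 with Klf16. Klf2 had 0.185 with Klf4 and -0.182 with Klf5.

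Outside the family, the expressed genes with the most similar course over the same 9 group means were Zfp219 (r = 0.985), Rnd1 and Zbtb45 for Klf2, Steap3 (r = 0.947), Sms and Nid1 for Klf4, Rnf139 (r = 0.973), Xrcc2 and Cnnm3 for Klf5, and Rbm12b2 (r = 0.979), Ttc19 and Wdr20 for Klf6. For the repressors they were Cdc42se1 (r = 0.982), Zfp979 and Abi2 for Klf3, Plekha8 (r = 0.983), Pura and Dcun1d4 for Klf10, Ppp2r5e (r = 0.989), Prss35 and Nr5a2 for Klf11, Tesk2 (r = 0.993), Rnf138 and Bcar3 for Klf13, and Pnpla2 (r = 0.924), Rras and Pak1ip1 for Klf16. Each was chosen for its high r among all expressed genes with a usual symbol, so the height of r is fixed by the choice.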

How the data were processed

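Poly(A) RNA was sequenced in paired-end mode from 27 libraries, 9 groups of 3, after a TruSeq stranded protocol, per the labels' protocols. Tools listed in the submitters' processing notes are HISAT2, StringTie, edgeR, FastQC and cutadapt, with the build mm10 and no versions. The annotation release is not given in the sources used here, nor is the strand setting. Per the file headers, the authors deposited 7 tables of 38352 genes that hold an FPKM value for each library, the log2 of a fold, a p-value, a q-value and a mark of significance. The ratio behind that fold is the authors' own, as deposited. FPKM keeps no read number, so the depth of a library is unknown. Of 15 columns repeated between tables, 0 differed.

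After a log2(FPKM + 1) transform, the 13614 genes that reached 1 FPKM in 3 or more libraries were fitted with limma 3.58.1 in R 4.3.3, with a mean-variance trend and 1 mean per group over all 27 libraries. The p-values were adjusted by Benjamini and Hochberg within each comparison, and the calling limit was 0.05. The fit was also run on simulated data with independent noise for each gene and library. Such data hold no lean shared by many genes of a library, so that run could not test its effect. The median SE of a change was 0.13. Transcript GC content and length came from GENCODE M21 for 13602 of the tested genes.

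The members and the gene lists were chosen with earlier results of these data known. The genes named are all 10 members, the other tested Klf and Sp genes, up to 3 genes of each other list with the largest change among called ones, and for each called member the 3 genes with the highest r over group means, at 5 FPKM or more in some group. A few further list genes were named after their values were seen.

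Alternatives were a pseudocount of 0.1, no filter or one of 5 FPKM, median-of-ratios scaling, only the libraries compared, a correction for GC content and length (splines with 4 degrees of freedom), a replicate block, the 4 libraries that stand apart left out, and each library left out in turn. Leaving out untreated 24 h replicates 1 and 3 as well was added after the data were seen. That fit kept only 1 untreated 24 h library, and its calls are not given. As a check of pairing, deviations of same-numbered libraries from their group means had correlations of -0.799 to 0.797 over 24 pairs, and every pair exceeded 0.1 for 8 h and 10 h alone. Replicate 3 is the library that stands apart in untreated 0 h, 8 h and 10 h alike. The check therefore cannot tell whether the numbers pair the samples or only share that trait. The main fit used no pairing.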

Additional observations from a re-analysis of the deposited data

Results flagged for a closer look

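For Klf4, the effect of treatment differed between 2 times: its 24 h change, against untreated 24 h cells, exceeded its 10 h change, against untreated 0 h cells, by 0.682 (SE 0.15, adjusted p = 0.00622, limma) on the log2(FPKM + 1) scale. The level was 30.1 ± 3.0 FPKM in treated cells at 10 h and 44.3 ± 0.1 FPKM at 24 h, against 44.5 ± 8.6 FPKM and 39.9 ± 0.5 FPKM in the untreated groups (SD, n = 3). The difference was 0.78 (SE 0.08) without the 4 libraries that stand apart and 0.76 (SE 0.11) with median-of-ratios scaling, both called. With only the libraries compared the call was lost (SE 0.18, adjusted p = 0.0806). It was the 1 such result among the 10 members with all libraries.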

How the results depend on the processing

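With the replicate block, no member's call changed in the 9 comparisons with untreated groups or between effects. The counts of members called were then 7, 7, 5 and 3 at 4, 6, 8 and 10 h, as without the block, and the step from 6 h to 8 h went from 6 to 7. A pseudocount of 0.1 and a filter of 5 FPKM changed no member's call. In the order 2 h, 10 h, 24 h, untreated 24 h against untreated 0 h, and 24 h minus 10 h effect, the counts were 0, 3, 0, 0 and 1 as reported. They became 2, 7, 1, 1 and 5 with the GC content and length correction, and 1, 7, 1, 1 and 5 when the block was added to it. With the correction alone the shares of all genes higher and lower were, in the same order, 0.852% and 1.56%, 18.1% and 19.7%, 9.51% and 10.5%, 1.23% and 1.68%, and 8.55% and 7.7%. The counts became 1, 6, 7, 5 and 6 without the 4 libraries that stand apart. Without the 4 libraries these shares were 0.646% and 1.87%, 25.6% and 14.2%, 33.1% and 18.2%, 11.7% and 18.4%, and 13.5% and 13.4%. With only the libraries compared the counts were 4 at 4 h, 1 at 8 h, 0 at 10 h, 5 at 24 h and 0 for the difference of effects, and 6 for the step from 4 h to 6 h. The shares of all genes higher and lower were then 22.7% and 13.1% at 24 h, 1.09% and 1.98% for the difference of effects, and 23.1% and 20.3% for that step. With no filter the 8 h count was 3 instead of 5. For the steps, the GC content and length correction gave 5 from 4 h to 6 h (6 with the block) and 1 from 8 h to 10 h (1 with the block), median-of-ratios scaling gave 1 from 8 h to 10 h, and leaving out the 4 libraries gave 2, 6, 10 and 2 for 0.5 h to 2 h, 4 h to 6 h, 6 h to 8 h and 8 h to 10 h. In the same order, the shares of all genes higher and lower were 15.2% and 16.2%, and 6.41% and 7.09%, with the correction alone. They were 2.61% and 3.53% with the scaling. Without the 4 libraries they were 0.705% and 2.03%, 24% and 20.4%, 30.5% and 12.8%, and 5.08% and 6.95%. Leaving out 1 library at a time gave 0 to 1 members at 2 h, 5 to 9 at 4 h, 7 to 8 at 6 h, 3 to 5 at 8 h, 2 to 6 at 10 h, 0 to 1 between the untreated groups and 1 to 3 for the difference of effects. For these ranges, the count with no filter and the counts with the block, the shares of all genes are not given here. A higher or lower count among them is therefore not read as a result about the family. Klf6 between the untreated groups turned from 0.08 to -0.216 without the 4 libraries. The cause of these changes was not tested.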
